A study of Homo sapiens and Mus musculus with 26 samples.

Results

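The genes described here are the alpha and beta tubulins measured in MHCC97H cells, a human hepatocellular carcinoma cell line. The rule took symbols of the form TUBA or TUBB with an optional number and letter, asked for the 10 with the highest mean FPKM over 12 libraries, and named TUBB6 in addition. Only 9 of the 8074 listed genes had such a symbol, so all 9 are members, TUBB6 is among them by level alone, and no gene fell just outside the limit. They were chosen by these levels, and TUBB6 was singled out by its polysome values. They are the alpha tubulins TUBA1B, TUBA1C and TUBA4A and the beta tubulins TUBB, TUBB4B, TUBB3, TUBB2A, TUBB2B and TUBB6. A further 10 protein-coding genes of that form in RefSeq, TUBA1A among them, are not analysed here.

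Alpha and beta tubulin proteins form the heterodimer from which microtubules are built, the tracks of vesicle traffic and the fibres of the mitotic spindle. Cells hold tubulin at a set level partly through its own mRNA: when free heterodimer is in excess, TTC5 recognises the first residues of tubulin chains as they leave the ribosome, and SCAPER and the CCR4-NOT deadenylase complex then lead to decay of the mRNA being translated. Tubulin mRNA levels can therefore depend on the translation of the same mRNA, and both are described here from input and polysome RNA.

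Input RNA and RNA associated with polyribosomes were sequenced from control cells (NC, labelled wild type) and from cells with METTL1 knocked down by a short hairpin RNA, labelled shMETTL1-2, with 3 repeats in each of the 4 groups. METTL1 is the catalytic subunit of the enzyme that places N7-methylguanosine on a subset of tRNAs, and the stated purpose was to find genes translated differently after its knockdown. Only this hairpin was sequenced, and the labels do not state whether repeats are separate cultures. A p-value here refers only to the spread among these libraries, which may be technical. METTL1 itself was at 47.9, 39.3 and 36.0 FPKM in repeats 1, 2 and 3 of control input RNA and at 11.9, 18.3 and 15.3 FPKM in knockdown input RNA. On polysomes it was at 45.3, 43.8 and 38.2 FPKM in control and 8.29, 22.9 and 25.6 FPKM in knockdown cells, so every knockdown library was below every control library.

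Libraries of repeat 1 stood apart from the others. The FPKM of all genes summed to between 482334 and 821900 per library, and the median gene was at 17.5 and 17.3 FPKM in the input libraries of repeat 1 but at 8.89 to 9.24 FPKM in those of repeats 2 and 3. Over all genes, repeats 2 and 3 of control input RNA differed by an SD of 0.126 on the log2(FPKM + 1) scale, whereas repeats 1 and 2 differed by 1.20. In repeat 1 polysome RNA of control cells differed from input RNA of the same repeat by an SD of 0.225, against 1.05 and 1.04 in repeats 2 and 3. The values of repeat 1 are also written differently in the table from those of the other repeats. Read depth is unknown, so the counting error of a value could not be estimated, which bears most on TUBB6 near 1 FPKM. Of 16 hepatocyte markers 5 were measured, with KRT8 at 2035 to 11327 FPKM and KRT18 at 907 to 8806 FPKM, HNF4A at 5.75 to 24.9 FPKM, APOH at 17.4 to 42.4 FPKM and FGA at 1.65 to 4.28 FPKM. ALB, TTR and AFP are not analysed here.

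TUBB, the major beta tubulin of dividing cells, and TUBA1B and TUBA1C, the common alpha tubulins, were the most abundant members, with mean levels over the 12 libraries of 1322, 1297 and 963 FPKM. TUBB4B, another widely expressed beta tubulin, averaged 702 FPKM, TUBA4A 306 FPKM, TUBB3, best known as the neuronal beta tubulin, 183 FPKM, and TUBB2A 131 FPKM. TUBB6 averaged 19.5 FPKM and TUBB2B 16.4 FPKM. Among all 8074 genes the means of TUBB, TUBA1B and TUBA1C ranked 81, 84 and 115, and those of TUBB6 and TUBB2B 3420 and 3805. This order is what the rule used and is given as a description. Alpha tubulins of the TUBA1 group, TUBB2A with TUBB2B, and TUBB with TUBB4B are near-identical in coding sequence, and how the counting divided reads among such copies is unknown, which leaves their separate values uncertain.

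The plot of tubulin levels by library shows the members in this order.

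**Figure D1:**
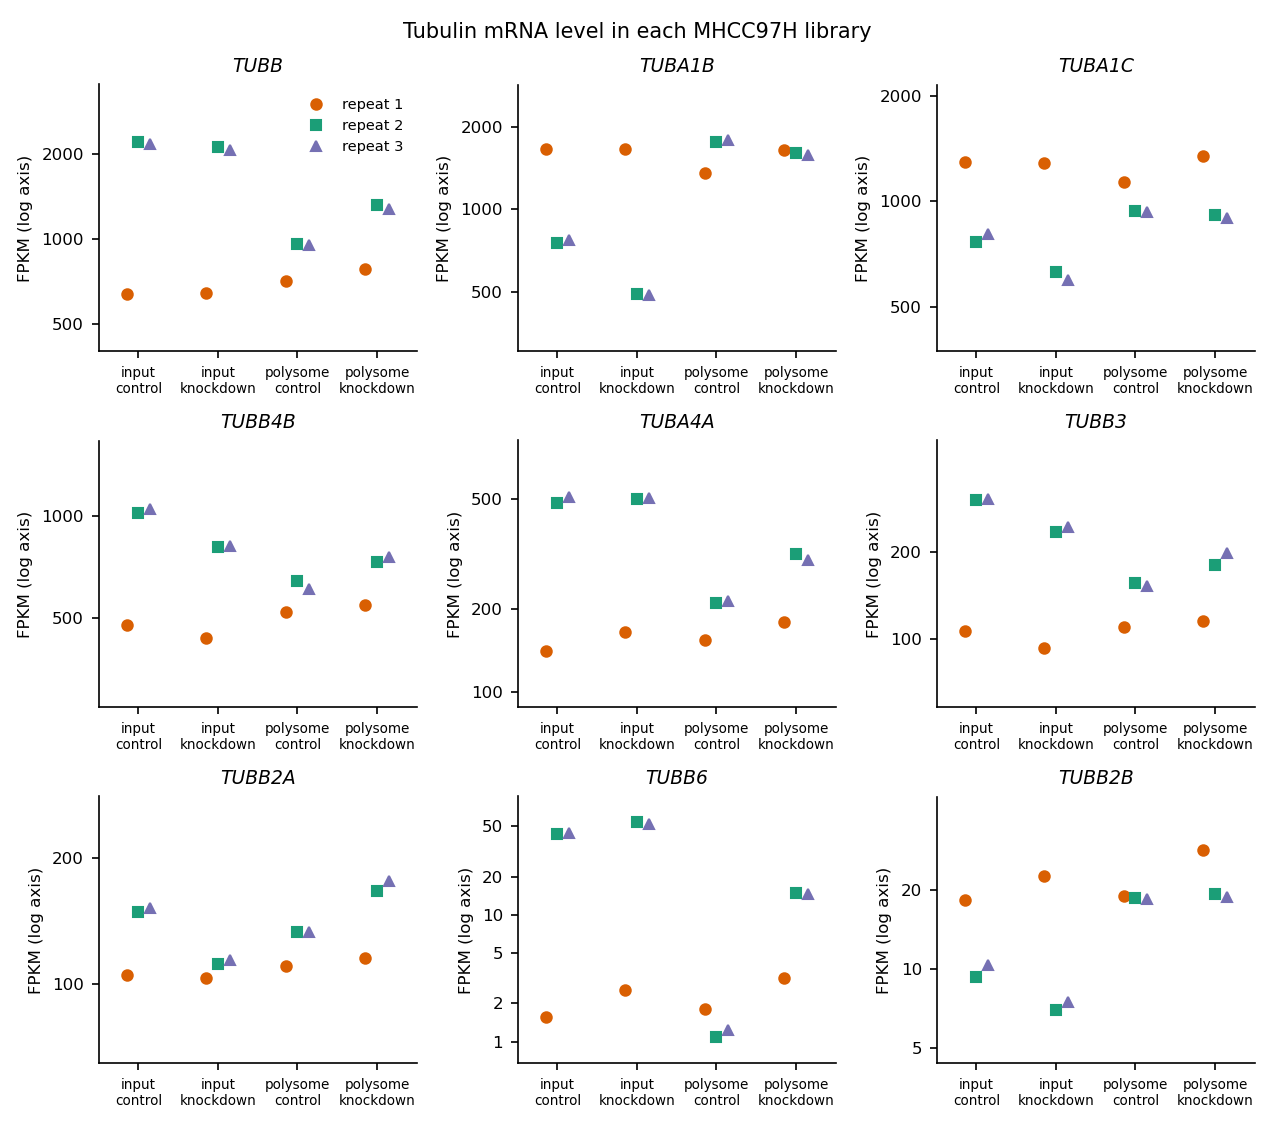
FPKM (log axis, scaled for each gene) of the 9 tubulin mRNAs in 4 groups of 3 libraries, with 1 point per library and the repeat number given by colour and shape. Repeats 2 and 3 lie together in every group, and TUBB6 spans 1.08 to 53.4 FPKM.

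In control input RNA TUBB was at 638, 2217 and 2176 FPKM in repeats 1, 2 and 3, TUBA4A at 140, 483 and 512 FPKM, TUBB3 at 107, 304 and 305 FPKM and TUBB4B at 477, 1026 and 1049 FPKM. These 4 mRNAs were thus 2.17 to 3.55 times as high in the mean of repeats 2 and 3 as in repeat 1. TUBA1B went the other way, with 1659, 754 and 771 FPKM, as did TUBA1C with 1299, 765 and 809 FPKM and TUBB2B with 18.2, 9.31 and 10.3 FPKM. TUBB2A varied least, with 105, 148 and 152 FPKM. The input libraries of knockdown cells had the same split, with TUBB at 643, 2125 and 2071 FPKM and TUBA1B at 1665, 492 and 485 FPKM.

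TUBB6, a beta tubulin of widespread expression that diverges from the other beta isotypes, had the widest gap of the 9. In control input RNA it was at 1.57 FPKM in repeat 1 and at 43.4 and 44.4 FPKM in repeats 2 and 3, and in knockdown input RNA at 2.57, 53.4 and 51.6 FPKM. Repeats 2 and 3 together were 27.9 times as high as repeat 1 in control and 20.4 times as high in knockdown input RNA, and on the log2(FPKM + 1) scale these gaps were the 4th and 3rd highest of 8074 genes. In control polysome RNA TUBB6 was at 1.81, 1.08 and 1.23 FPKM, close to the lowest FPKM of 1 in the table. In knockdown polysome RNA it was at 3.20, 14.9 and 14.5 FPKM.

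Summed over members, alpha tubulin mRNA was at 3098, 2001 and 2092 FPKM in repeats 1, 2 and 3 of control input RNA and beta tubulin mRNA at 1347, 3748 and 3736 FPKM. The ratio of the alpha to the beta sum was therefore 2.30 in repeat 1 and 0.534 and 0.560 in repeats 2 and 3, so which subunit had more mRNA depended on the repeat. In knockdown input RNA the ratio was 2.40, 0.485 and 0.480. In polysome RNA alpha exceeded beta in every library, with ratios of 1.80, 1.53 and 1.57 in control and 2.00, 1.17 and 1.14 in knockdown cells. All 9 members together made up 0.595% to 0.922% of the summed FPKM of a library, a narrower range than that of the ratio. Their total in input RNA averaged 5341 ± 776 FPKM for control and 4758 ± 300 FPKM for knockdown cells, and in polysome RNA 4582 ± 401 and 5084 ± 281 FPKM (SD, n = 3 each). In polysome RNA the total was higher in knockdown cells in each repeat, with 4120, 4831 and 4795 FPKM in control and 4761, 5268 and 5223 FPKM after knockdown, although the groups overlapped. In input RNA the total was lower in each repeat, with 4445, 5749 and 5828 FPKM against 4415, 4969 and 4890 FPKM, also with overlap. As a share of the summed FPKM of the library, polysome RNA had 0.854%, 0.844% and 0.838% in control and 0.922%, 0.799% and 0.799% after knockdown. The polysome share was thus higher after knockdown in repeat 1 and lower in repeats 2 and 3, unlike the total. In input RNA the share was lower after knockdown in each repeat. As sums over chosen members, totals and shares were not tested.

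**Figure D2:**
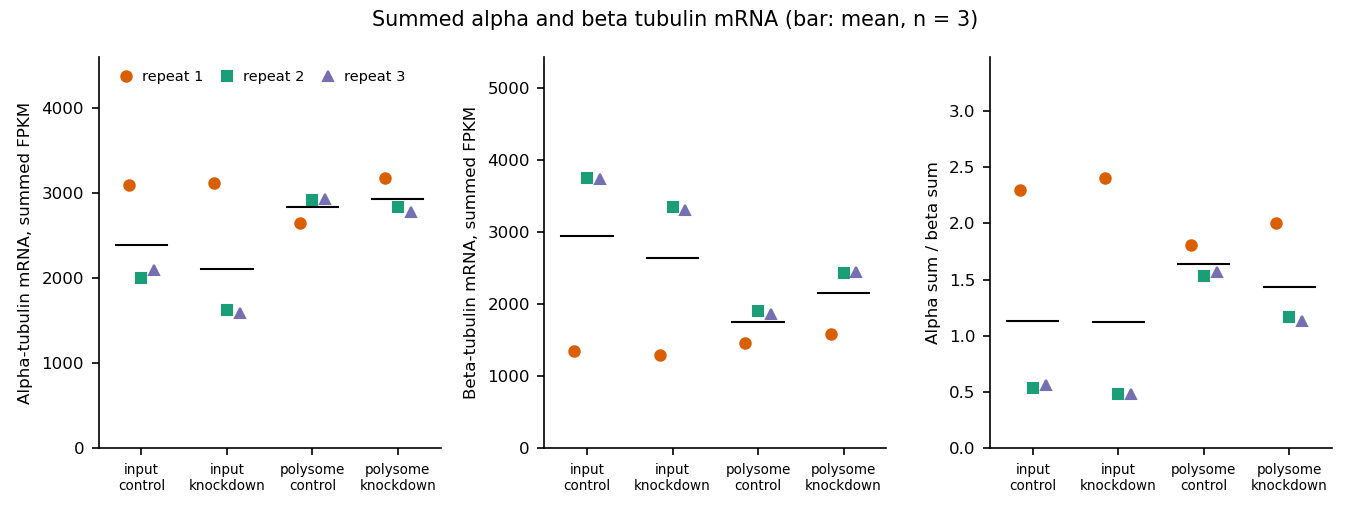
Summed FPKM of 3 alpha and 6 beta tubulin mRNAs, and their ratio, per library, with a bar at the mean of 3 repeats. In input RNA repeat 1 lies at a ratio of 2.30 and 2.40 and repeats 2 and 3 at 0.480 to 0.560, while all polysome libraries lie between 1.14 and 2.00.

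The 250 bases upstream of a start annotated in RefSeq are shown for 3 members whose input levels separated the repeats in different ways: TUBB and TUBB4B, higher in repeats 2 and 3, and TUBA1B, lower there (for TUBB the upstream of 2 annotated starts). They are written 5′ to 3′ on the strand of the gene, from chr6:30720102-30720351 (plus strand), chr9:137241037-137241286 (plus) and chr12:49131396-49131645 (minus) of GRCh38.p14. Capitals mark CCAAT or its reverse complement ATTGG, the CCAAT box.
TUBB: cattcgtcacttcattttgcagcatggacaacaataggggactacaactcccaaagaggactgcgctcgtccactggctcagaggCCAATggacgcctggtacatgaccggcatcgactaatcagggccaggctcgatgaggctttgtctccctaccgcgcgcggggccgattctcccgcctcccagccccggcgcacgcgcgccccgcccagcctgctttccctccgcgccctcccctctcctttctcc
TUBB4B: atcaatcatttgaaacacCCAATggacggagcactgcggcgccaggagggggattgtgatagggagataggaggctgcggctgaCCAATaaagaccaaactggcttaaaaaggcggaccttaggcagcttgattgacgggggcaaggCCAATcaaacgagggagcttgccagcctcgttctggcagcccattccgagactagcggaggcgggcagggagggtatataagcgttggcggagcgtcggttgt
TUBA1B: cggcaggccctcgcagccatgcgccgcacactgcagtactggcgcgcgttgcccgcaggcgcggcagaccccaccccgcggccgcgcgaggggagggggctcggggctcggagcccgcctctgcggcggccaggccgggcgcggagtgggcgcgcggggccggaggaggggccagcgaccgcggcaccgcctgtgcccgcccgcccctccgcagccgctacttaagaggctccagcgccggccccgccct
The TUBB4B window holds 3 such matches, that of TUBB 1 and that of TUBA1B 0, and the other TUBB window, not shown, holds 0. TUBA1C and TUBB2B, lower in repeats 2 and 3 of input RNA like TUBA1B, hold the box. Of the members higher there, TUBB3 and TUBB6 hold it in 1 window each, and TUBA4A and TUBB2A do not hold it. Whether the box goes with the split between repeats was not tested. Over all 14 upstream windows of the 9 members, 8 hold the CCAAT box (57.1%), against 32.0% of 35116 windows in the RefSeq promoter table, and at least 1 window of 6 of the 9 genes holds it. The GC box GGGCGG or CCGCCC is in 9 of the 14 windows (64.3%, against 42.6% of all), with 3 matches in the window of TUBA1B. TATAAA or TTTATA is in 1 of the 14 windows, that of TUBB2A, and in 10.7% of all. Windows of 1 gene can overlap, and a match is a description of letters only.

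Genomic positions are from RefSeq on GRCh38.p14. TUBB (chromosome 6, 30720352 to 30725422), TUBB2A (chromosome 6, 3153666 to 3157544) and TUBB2B (chromosome 6, 3224277 to 3227653) share a chromosome, as do TUBA1B (chromosome 12, 49127782 to 49131395) and TUBA1C (chromosome 12, 49227926 to 49274600). TUBB4B lies on chromosome 9 from 137241287 to 137243707, TUBA4A on chromosome 2 from 219249710 to 219254740, TUBB3 on chromosome 16 from 89921925 to 89936097 and TUBB6 on chromosome 18 from 12307669 to 12329826. Tubulin genes are short: 8 of 9 span less than the median of 26434 bp over 8066 genes, and the median span of the members is 5031 bp.

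Control polysome RNA was then set against control input RNA, which shows the level of each tubulin mRNA in polysome RNA relative to input RNA. In repeat 1 the members hardly differed: the ratio of polysome to input FPKM lay between 0.818 for TUBA1B and 1.15 for TUBB6. In repeats 2 and 3 it separated the members. TUBA1B was at 2.35 and 2.32 and TUBB2B at 1.995 and 1.79, TUBA1C at 1.23 and 1.15 and TUBB2A at 0.899 and 0.876. TUBB4B was at 0.626 and 0.580, TUBB3 at 0.515 and 0.501, TUBB at 0.433 and 0.438 and TUBA4A at 0.435 and 0.416. TUBB6 was lowest, at 0.0249 and 0.0277, which is 40.2 and 36.1 times more in input than in polysome RNA.

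On the log2(FPKM + 1) scale the control polysome minus input difference over 3 repeats was 0.72 for TUBA1B and 0.59 for TUBB2B, -0.75 for TUBB, -0.78 for TUBA4A, -0.64 for TUBB3, -0.45 for TUBB4B, -0.09 for TUBB2A and 0.10 for TUBA1C. For TUBB6 it was -2.88, given with no test because control polysome values of TUBB6 bear on its choice. In limma over all 12 libraries 0 of the other 8 passed an adjusted p of 0.05 (adjusted p from 0.323 to 0.835, unadjusted at least 0.169), and 0 of all 8074 genes did (0%), with 1735 at an unadjusted p below 0.05. Groups did not overlap for TUBB2B alone of the 8, which was higher in polysome RNA, against 18.7% of all genes higher and 3.01% lower. The median of the 8 was -0.27, and that of all genes 0.39, while with quantile normalization they were -0.04 and -0.05. Control input replicate 1 decides these counts, since without it limma called 3945 genes (48.9%). Among them were TUBB at -1.34 (limma adjusted p = 0.0497), TUBB3 at -1.14 (0.0446) and TUBA4A at -1.38 (0.0362). Control input then holds repeats 2 and 3 alone, and such p-values are too small if both came from 1 preparation. A separate fit kept repeat 1 of every group, control input included, beside the mean of repeats 2 and 3. It called 0 of 8074 genes, as did the main fit, which also holds control input replicate 1. The effect of averaging alone was therefore not tested. In the averaged fit TUBB was at -0.53 (limma adjusted p = 0.898), TUBB3 at -0.47 (0.897) and TUBA4A at -0.55 (0.897). The deposited scaling matters too, since equal library medians moved the median of all genes from 0.39 to -0.16 and TUBA1C from 0.10 to -0.44, and quantile normalization put TUBB4B at 0.0076.

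**Figure D3:**
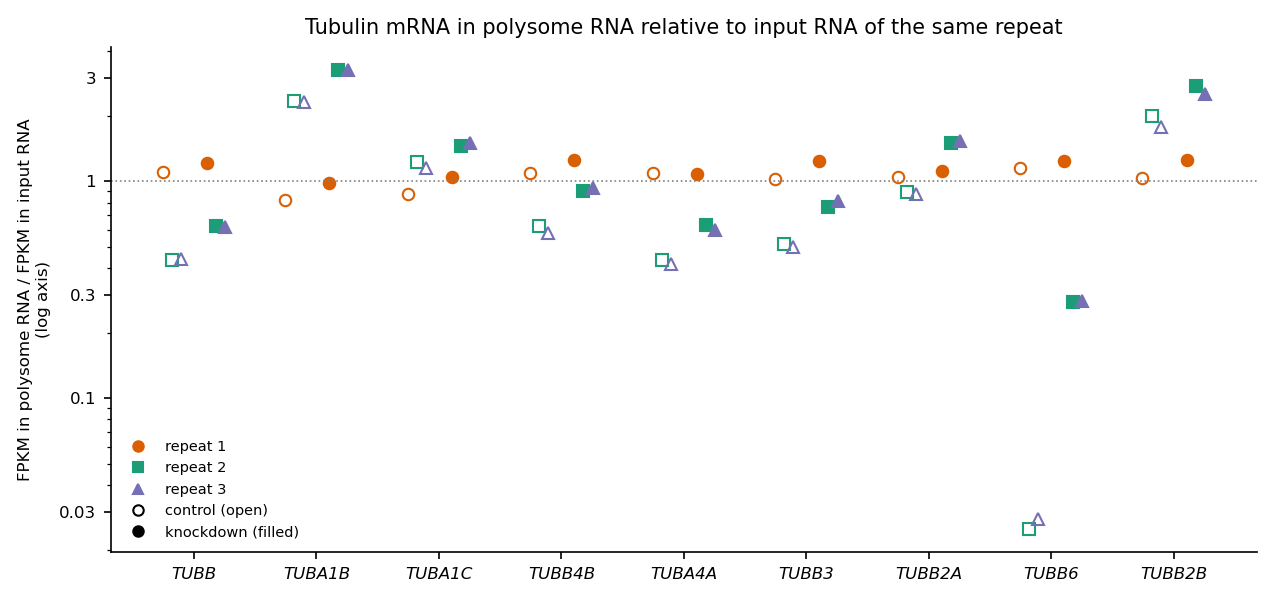
Ratio of polysome to input FPKM of the same repeat (log axis) for 9 tubulin mRNAs, with open symbols for control and filled symbols for knockdown cells. In repeats 2 and 3 the filled symbols lie above the open ones for all 9 genes, and in repeat 1 for 8, all but TUBA4A (1.10 and 1.09).

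In input RNA of METTL1 knockdown cells most tubulin mRNAs were at slightly lower levels than in control, and none passed the test. The log2 difference was below 0 for 7 of the 8 members other than TUBB6, with a median of -0.26, against -0.03 over all genes, of which 43.8% were above 0. This gap depended on single libraries. Without control input replicate 2 the medians were -0.15 and -0.15, and without replicate 3 -0.14 and -0.14. Without knockdown input replicate 1 they were -0.11 and -0.27, with 4 of the 8 above 0. Without control input replicate 1 they were -0.49 and 0.19. Without knockdown replicate 2 or 3 they were -0.24 and 0.08 or -0.25 and 0.08. TUBA1B had the lowest value, -0.43 with a standard error of 0.49, with 0.01, -0.61 and -0.67 in repeats 1, 2 and 3. TUBB3 was at -0.30 (SE 0.47), TUBB2A at -0.28 (SE 0.22), TUBB4B at -0.28 (SE 0.36), TUBA1C at -0.24 (SE 0.35), TUBB2B at -0.16 (SE 0.41), TUBB at -0.04 (SE 0.58) and TUBA4A at 0.09 (SE 0.55). TUBB4B was at 477, 1026 and 1049 FPKM in control and 435, 814 and 816 FPKM in knockdown cells, lower in each repeat while the groups overlapped. TUBB2A was at 105, 148 and 152 FPKM in control and 103, 111 and 114 FPKM in knockdown cells.

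No member passed in input RNA in limma over all 12 libraries, TUBB6 included (adjusted p of 1.00 for each of the 9, unadjusted at least 0.219), as for 0 of 8074 genes (0%), while 134 had an unadjusted p below 0.05. The differences were below 0 in all 3 repeats for 4 members, TUBA1C, TUBB4B, TUBB3 and TUBB2A, as for 22.1% of all genes, and groups overlapped for all 9, against no overlap in 4.32% of genes. With the repeat number as a block, over all 12 or over the 6 input libraries, limma called 0.0124% of genes and 0 tubulins, and with a term for repeat 1 in each kind of library 6.02% and 0. TUBB6 was above 0 in every repeat, at 0.47, 0.30 and 0.21, with a mean of 0.33 and a standard error of 1.25. The medians of the 8 others in repeats 1, 2 and 3 were -0.0042, -0.35 and -0.38, so the lower values were those of repeats 2 and 3. Repeats of 1 group differed more than knockdown from control, and over the 8 members the 95% intervals reached from -1.50 to 1.31. Without control input replicate 1, TUBB6 was at -1.05, TUBB at -0.63 and TUBA4A at -0.52, and without knockdown input replicate 1 they were at 1.63, 0.53 and 0.62.

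In polysome RNA of knockdown cells 6 of the 8 tubulins other than TUBB6 were at higher levels than control in every repeat, and the abundant alpha tubulins TUBA1B and TUBA1C were not. None passed the test over all 12 libraries. TUBB was at 707, 961 and 952 FPKM in control and 780, 1320 and 1278 FPKM in knockdown cells. TUBA4A was at 154, 210 and 213 FPKM and at 178, 316 and 301 FPKM. Both were higher in each knockdown repeat than in the control of the same number, while the groups overlapped because repeat 1 was low in both. TUBB2A was at 110, 133 and 133 FPKM in control and 115, 167 and 176 FPKM in knockdown cells, TUBB4B at 521, 642 and 608 and at 544, 732 and 760 FPKM, and TUBB3 at 110, 156 and 153 and at 115, 180 and 199 FPKM. By contrast TUBA1B was at 1357, 1768 and 1786 FPKM in control and 1646, 1604 and 1582 FPKM in knockdown cells, and TUBA1C at 1140, 941 and 931 and at 1350, 915 and 895 FPKM. TUBB2B was at 18.9, 18.6 and 18.5 FPKM in control and at 28.2, 19.3 and 18.8 FPKM in knockdown cells, so its difference came mostly from repeat 1.

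The log2 differences in polysome RNA were 0.43 for TUBA4A (SE 0.55), 0.34 for TUBB (SE 0.58), 0.26 for TUBB2A (SE 0.22), 0.22 for TUBB3 (SE 0.47), 0.21 for TUBB2B (SE 0.41), 0.19 for TUBB4B (SE 0.36), 0.05 for TUBA1C (SE 0.35) and -0.01 for TUBA1B (SE 0.49). These SEs rest on 1 spread shared by input and polysome libraries, so they equal those of the input comparison. Fitted to the 6 polysome libraries alone, which takes repeats 2 and 3 as separate samples, they ran from 0.18 for TUBB2B to 0.27 for TUBB. The median of the 8 differences was 0.21, and that of all genes -0.03. With quantile normalization these medians were 0.09 and 0.08, with 5 of the 8 above 0, so the gap from all genes was not seen under that scaling. In limma over all 12 libraries 0 of these 8 passed (adjusted p from 0.768 to 0.999, unadjusted at least 0.247), as for 0 of 8074 genes (0%), while 609 had an unadjusted p below 0.05. All 3 repeats were above 0 for 6 of the 8, all but TUBA1B and TUBA1C, as for 30.3% of all genes. Groups overlapped for all 8, while 13.7% of genes were higher and 26.5% lower with no overlap. Fitted to the 6 polysome libraries alone with the repeat number as a block, limma called 42.0% of all genes and 2 of the 8 tubulins, TUBB (adjusted p = 0.0370) and TUBA4A (0.0158). Without the block, the same 6 libraries gave 13.8% of genes and 0 of the 8, and with repeats 2 and 3 averaged as 1 sample 0% and 0. The block over all 12 libraries gave 0.0124% of genes and 0 of the 8, and a term for repeat 1 in each kind of library 52.8% and 4, namely TUBB (limma adjusted p = 0.00419), TUBA4A (0.00151), TUBB2A (0.0361) and TUBB3 (0.0409).

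The polysome difference followed genomic span over all genes, with a Spearman correlation of -0.455 over 8066 genes, which are not independent and share their libraries. With the trend on span taken out of each library, the polysome differences were 0.26 for TUBA4A, 0.17 for TUBB, 0.19 for TUBB3, 0.06 for TUBB2A, 0.30 for TUBA1C, -0.01 for TUBB2B, -0.07 for TUBB4B and -0.23 for TUBA1B. TUBB2B and TUBB4B thus changed sign under this setting. TUBB4B (-0.08) and TUBA1C (-0.17) did so with quantile normalization, and TUBA1B (0.16) with equal library medians.

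TUBB6 had the largest polysome difference of the 9, from 1.37 ± 0.386 FPKM in control to 10.8 ± 6.62 FPKM in knockdown cells (SD, n = 3 each), with no overlap between groups. Its log2 differences were 0.58, 2.93 and 2.79 in repeats 1, 2 and 3, so the size rested on repeats 2 and 3. It was singled out for this difference in earlier work on the same data, so no test is given. In repeats 2 and 3 the knockdown polysome level of 14.9 and 14.5 FPKM lay between the 1.08 and 1.23 FPKM of control polysomes and the 53.4 and 51.6 FPKM of knockdown input RNA. The levels of TUBB in repeats 2 and 3 lay in the same order, from 961 and 952 to 1320 and 1278 and to 2125 and 2071 FPKM. In all 7 of the 9 members had a knockdown polysome level between the other 2 in both repeats, as did 59.5% of all genes, and TUBB2A and TUBB2B did not. TUBB6 is among the 7, and its higher polysome level in knockdown cells is what it was singled out for, so its place there is a description only. Whether polysome and input RNA were separated equally well in all libraries was not tested.

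**Figure D4:**
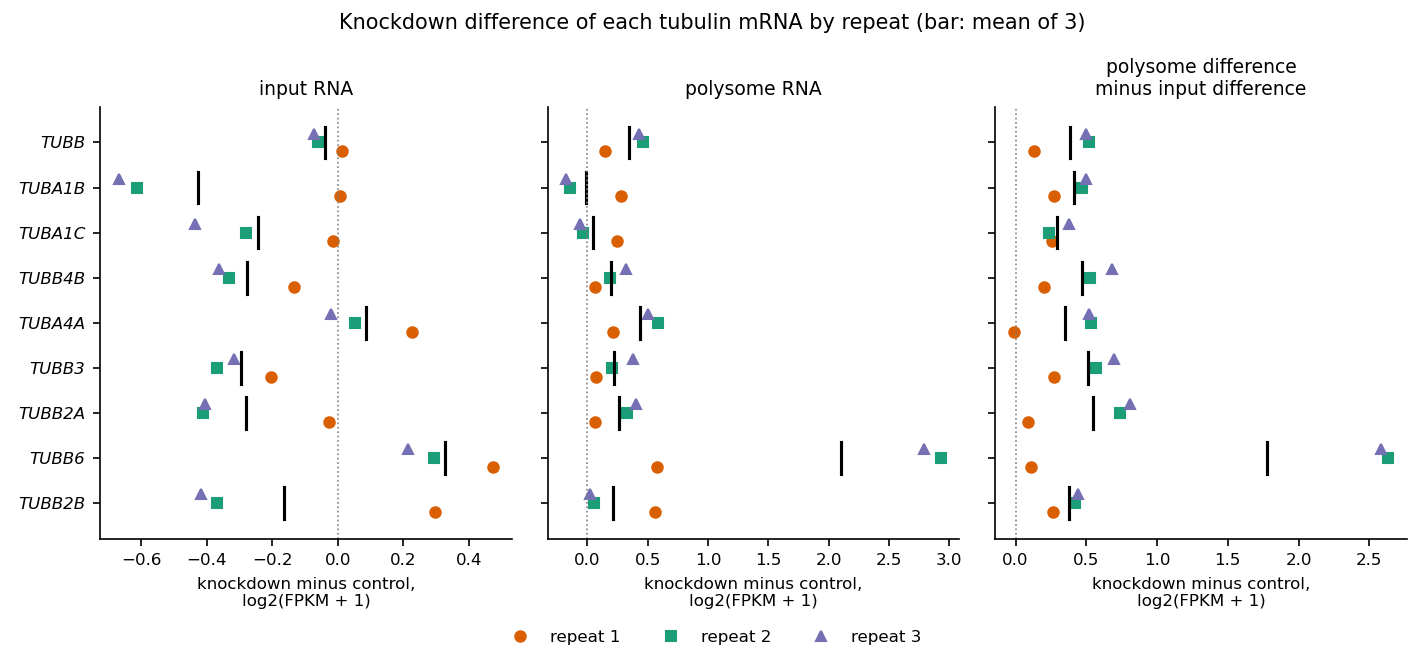
Knockdown minus control difference on the log2(FPKM + 1) scale for each of 9 tubulin mRNAs, in input RNA, in polysome RNA and as the polysome minus the input difference, with 1 point per repeat and a bar at the mean. In the right panel every point lies above 0 except TUBA4A in repeat 1 (-0.01), and TUBB6 reaches 2.63 and 2.58 in repeats 2 and 3.

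The polysome difference minus the input difference measures how the polysome level of an mRNA relative to its input level differed between knockdown and control cells. FPKM is scaled within each library, so it does not give the share of an mRNA's molecules on polyribosomes. This double difference was above 0 on average for all 8 members other than TUBB6, as for 52.9% of all genes. It was 0.55 for TUBB2A (SE 0.30), 0.51 for TUBB3 (SE 0.67), 0.47 for TUBB4B (SE 0.51), 0.41 for TUBA1B (SE 0.69), 0.38 for TUBB (SE 0.82), 0.37 for TUBB2B (SE 0.58), 0.35 for TUBA4A (SE 0.78) and 0.29 for TUBA1C (SE 0.50). For TUBB6 it was 1.77, with 0.11, 2.63 and 2.58 in the repeats, again with no test. Of the other 8, 7 were above 0 in all 3 repeats, as for 36.1% of all genes, and the exception was TUBA4A at -0.01 in repeat 1. The alpha tubulin TUBA1B had 0.27, 0.47 and 0.49, so its lower input level in repeats 2 and 3 was not accompanied by an equal difference in polysome RNA. Its ratio of polysome to input FPKM was 2.35 and 2.32 in repeats 2 and 3 of control cells and 3.26 and 3.27 in those of knockdown cells.

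The median of the 8 was 0.40, and 0.23, 0.52 and 0.51 in repeats 1, 2 and 3, whereas the median of all genes was 0.04, and 0.05, -0.02 and 0.0026. This gap depends on the scaling: with quantile normalization the 8 had a median of 0.18, with TUBA1B and TUBA1C at 0.05 and 0.03, against 0.12 over all genes, and with the span trend removed 0.12 against 0.06. The contrast shares its libraries with the polysome and input comparisons, and the members are not independent replicates. In limma over all 12 libraries 0 of the 8 passed (adjusted p from 0.977 to 0.980, unadjusted at least 0.102), as for 0 of 8074 genes (0%), while 336 had an unadjusted p below 0.05. Groups did not overlap for TUBB2A alone of the 8, higher in knockdown cells, against 10.6% of genes higher and 6.08% lower. Without knockdown input replicate 1, TUBB was at -0.19 and TUBA4A at -0.19, while the other 6 stayed above 0 without any library. With the span trend removed all 8 were above 0, from 0.07 for TUBB2B to 0.52 for TUBA1C. A fit with a term for repeat 1 per kind of library, chosen after seeing the data, gave 42.5% of all genes and 5 of the 8: TUBB2A (limma adjusted p = 0.00878), TUBB3 (0.00503), TUBB4B (0.00757), TUBB (0.0210) and TUBA4A (0.0416). That fit takes its spread largely from repeats 2 and 3, so these p-values are too small if those repeats share a preparation.

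Genes whose levels were most like those of TUBB6 over the 12 libraries were HAUS7, a subunit of the augmin complex of spindle microtubules (Pearson r of 0.99 on the log2(FPKM + 1) scale), NAGK, an N-acetylglucosamine kinase (0.99), EIF3CL, a near copy of an initiation factor subunit gene (0.98), THAP3 (0.98) and NDUFS3, a subunit of respiratory complex I (0.98). For TUBB they were the elongation factor subunits EEF1G (0.999) and EEF1D (0.996), UQCRC1 (0.997) and NDUFV1 (0.996) of the respiratory chain, and PPIB (0.996), a cyclophilin of the endoplasmic reticulum. As many as 610 genes reached an r of at least 0.9 with TUBB6 and 748 with TUBB. All these points share their libraries, and the part of repeat 1 in these correlations was not tested. Among the members, TUBB and TUBA4A had an r of 0.995 and TUBB and TUBB6 of 0.94, while TUBB and TUBA1C were at -0.92 and TUBA1B and TUBB2B at 0.95. Members of the same subunit type therefore did not always vary together.

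Other genes of the microtubule system were described from lists chosen with earlier results of these data known. No member of any list passed in limma over all 12 libraries in any of the 4 comparisons, and the smallest unadjusted p in the polysome comparison was 0.00355 for CAMSAP2. Calls given below are from the fit of the 6 polysome libraries alone, without the block, which takes repeats 2 and 3 as separate samples. It called 88 of 8074 genes higher and 1029 lower, and 0 with repeats 2 and 3 averaged, so no call below held there. TUBG1, the gamma tubulin that nucleates microtubules, was at 0.35 in polysome RNA and TUBG2 at 0.04, while TUBD1, the delta tubulin of centrioles, was at -0.53 and passed when only the 6 polysome libraries were fitted (limma adjusted p = 0.0405). Of the gamma-tubulin ring complex 6 of 9 genes were measured, with a median polysome difference of -0.02, 3 above and 3 below 0, and 0 called in that fit. Its members MZT2A and MZT2B were at 0.50 and 0.53 and TUBGCP3 at -0.27. The folding cofactors, which join alpha and beta chains into heterodimers, were above 0 in polysome RNA for 5 of 5, with a median of 0.19. ARL2, the small GTPase of this machinery, was at 0.53, with 0.55, 0.52 and 0.53 in the repeats, and passed in the 6-library fit (limma adjusted p = 0.0304). TBCB was at 0.54 and TBCD at 0.19.

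The CCT chaperonin and prefoldin, which fold newly made tubulin and actin, were measured for 16 of 16 genes and had a median polysome difference of -0.39, with 10 below 0. In repeats 1, 2 and 3 the median was -0.52, -0.30 and -0.30, so unlike the tubulins the list was furthest from 0 in repeat 1. With only the 6 polysome libraries fitted, 4 fell and 0 rose, in a fit that called 1029 of 8074 genes lower and 88 higher. CCT6A was at -0.84 (limma adjusted p = 0.0227), and the others were VBP1, TCP1 and CCT2, which were picked after their values were seen. CCT8 was at -0.99 and CCT5 at -0.35. Their input RNA had a median of -0.01. Tubulin autoregulation factors were measured for 8 of 13 genes, with a median polysome difference of -0.39, 3 above and 5 below 0, and a median input difference of 0.0012. CNOT11 of the CCR4-NOT complex was at -0.77 (limma adjusted p = 0.0284 in the 6-library fit), CNOT10 at -0.38 and CNOT8 at -0.41. The list had 3 members that fell in that fit, against 1029 of all 8074 genes.

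Tubulin-modifying enzymes were measured for 10 of 18 genes, with a median polysome difference of 0.06, 6 above and 4 below 0. SVBP, the partner of the vasohibin enzymes that remove the last tyrosine of alpha tubulin, was at -0.71 in polysome and -0.65 in input RNA, and passed in the 6-library polysome fit (limma adjusted p = 0.0193). TTLL5, a glutamylase, was at -0.45 and the deacetylase SIRT2 at 0.26. Microtubule-binding and dynamics genes were measured for 25 of 33, with a median of -0.23, 10 above and 15 below 0. Of these 5 fell and 0 rose in the 6-library fit, among them CAMSAP2, which binds microtubule minus ends, at -0.77 (limma adjusted p = 0.0294). MAP7D3 was at -1.05 and STMN3, of the stathmin family, at 0.40. Actin and its regulators, another cytoskeletal system, were measured for 18 of 18 genes with a median of -0.06 in polysome and -0.17 in input RNA. ACTR3 (-1.51) and ACTR2 (-1.13) of the ARP2/3 complex were among 4 that fell in the 6-library fit, and CFL1, cofilin, was at 0.41. The 6-library fit called 13.8% of all genes, of which 88 were higher and 1029 lower, and a lower call is the common kind there. Of marker lists of other cell types, neuron markers were represented by MAP2 alone (1.47 to 4.33 FPKM), leukocyte markers by CD68 alone (45.5 to 101 FPKM), a lysosomal protein not limited to leukocytes, and fibroblast and endothelial markers by 0 of 9.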

How the data were processed

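The authors deposited FPKM values per gene, normalized for gene length and library size, for 12 MHCC97H libraries. No listed value is under 1 FPKM, so a gene that dropped under it anywhere is missing. The submitters' processing notes name Bowtie2, HTSeq and GRCh38 without roles or versions. Annotation and FPKM denominator: not given in the sources used here. Read depth is unknown. TRAC-Seq tables of small RNA were not used here. Titles gave groups and repeat numbers.

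The main fit used limma 3.58.1 (R 4.3.3) on log2(FPKM + 1), with group means over all 12 libraries, an intensity trend and Benjamini-Hochberg adjustment over 8074 genes. Its standard errors and intervals use, for each gene, 1 spread shared by input and polysome libraries. Tests were two-sided, with a threshold of 0.05 on adjusted p. The filter, FPKM of 1 or more in 3 libraries, removed no gene. Fold changes of low genes are understated on this scale. The fit was also run on simulated data with independent errors and the polysome spread in every library. Those data hold neither the gap of repeat 1 nor the closeness of repeats 2 and 3, so the run does not bear on these limits. The 9 tubulins and the gene lists were chosen with earlier results of these data known. Named genes are the members, METTL1, the 5 genes most like TUBB6 and TUBB by Pearson r, and up to 3 members of each list with the smallest p in the polysome comparison. Libraries of the same number shifted in the same direction from the mean of their group (Pearson r across genes from 0.319 to 0.942), which was taken as pairing, although repeats 2 and 3 also correlated with each other across groups (0.333 to 0.928). RefSeq (GRCh38.p14) gave genomic spans for 99.9% of genes and promoter sequences for all 9 members. Alternatives were another pseudocount (0.1), a mean FPKM of at least 5, other scalings, the repeat block, averaged repeats, removal of the span trend (lowess over 0.3 of genes), fits of 1 library kind and leaving out each library.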

Additional observations from a re-analysis of the deposited data

How the results depend on the processing

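Unknown depth, a table cut at 1 FPKM, 3 libraries a group and the distance of repeat 1 from repeats 2 and 3 limit every value. Of 333 values under other settings 311 kept their direction and side of the threshold, and of 270 with 1 library left out 244. Several of the other settings leave each difference as in the main fit, so its direction could not reverse there. These are the mean FPKM filter, the repeat block, the term for repeat 1 and the fits of 1 library kind without averaging. TUBB6 was given no test outside input RNA. Its values there were counted as kept if they moved by less than the SD of its repeat differences, whatever the threshold. Genes called by limma numbered 0 in each comparison. The replicate block, which follows the pairing by repeat number, gave 1 in polysome and 1 in input RNA over 12 libraries. Over the 6 libraries of 1 kind it gave 3392 and 1, with 2 tubulins called in polysome RNA. Tubulin counts in this section leave out TUBB6 except in input RNA, whereas counts of all genes include it. Without the block the 6 polysome libraries gave 1117. A term for repeat 1 in each kind, 1 of 2 alternatives chosen after seeing the data (the other averaged repeats 2 and 3 within 1 kind), gave 4260 genes and 4 tubulins in polysome RNA, 486 genes in input RNA, and 3434 genes and 5 tubulins for the polysome minus the input difference. With 1 library left out, calls ranged from 0 to 3 genes for the latter, and from 0 to 3945 genes and 0 to 3 tubulins for control polysome against input RNA. In these fits a smaller group is assumed to vary like the others. The 3945 calls came from leaving out control input replicate 1. In that comparison 0 genes passed when repeat 1 of each group, control input included, was kept beside the mean of its repeats 2 and 3.

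Some directions reversed, and the cause was not tested. In polysome RNA the TUBA1B difference was 0.16 with equal library medians and 0.060 with repeats 2 and 3 averaged, over 12 or 6 libraries. Quantile normalization gave -0.17 for TUBA1C and -0.083 for TUBB4B, and removal of the span trend -0.066 for TUBB4B and -0.0094 for TUBB2B. In input RNA the span setting gave 0.041 for TUBB. For control polysome minus input, TUBA1C was -0.44 with equal medians and -0.49 without the span trend, and TUBB4B 0.0076 with quantile normalization. With 1 library left out, the polysome difference ranged from -0.14 to 0.056 for TUBA1B and from -0.14 to 0.15 for TUBA1C. The input difference ranged from -0.63 to 0.53 for TUBB, -0.65 to 0.025 for TUBB4B, -0.52 to 0.62 for TUBA4A, -0.80 to 0.16 for TUBB3, -1.05 to 1.63 for TUBB6 and -0.67 to 0.11 for TUBB2B. The polysome minus the input difference ranged from -0.19 to 0.98 for TUBB and -0.19 to 0.95 for TUBA4A, and control polysome minus input from -0.036 to 0.35 for TUBA1C and -0.26 to 0.0025 for TUBB2A.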
